A study of Mus musculus with 24 samples.

Results

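Col1a1, Col1a2, Col3a1, Col4a1, Lum, Dcn and Twist1 encode collagen chains, collagen-binding proteoglycans and a transcription factor of mesenchyme. These 7 genes were taken by name from the authors' table of peaks of RNA immunoprecipitated with STAU2, which held 7970 genes in 14297 peak rows with a gene. All 7 were found. They had 11 peak rows, of which the authors called 9 as 3' UTR and 2 as exon. Each peak, and the sum of the peaks of a gene, was followed over the 4 stages.

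The study immunoprecipitated RNA from the brain cortex of C57BL/6 mice with an anti-STAU2 antibody (Abcam ab60724), 3 libraries per stage. The stages are given as days of embryonic age, E11.5 and E13.5 (early) and E15.5 and E17.5 (late). STAU2 binds double-stranded stretches of RNA and is part of RNA granules that carry messages in neural cells. The labels name no altered allele and no treatment, so the groups differ by age, and they do not say whether the libraries of a stage came from separate embryos. The p-values therefore measure only the spread between these libraries, which may be technical. The labels also list 12 inputs of total RNA under the same stage and replicate names. The 12 columns of the table were read as the immunoprecipitations because it lists peaks of bound RNA, and the inputs were not analysed here. Without them, more or less binding and more or less of an RNA in the cortex cannot be told apart, and in bulk tissue neither can fewer cells of a type and less RNA per cell.

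The fibrillar collagens of types I and III form the tensile fibres of connective tissue, and type I is built from the chains of Col1a1 and Col1a2. Type IV collagen, to which Col4a1 contributes a chain, forms the sheet of basement membranes around vessels and below the pia. Lumican (Lum) and decorin (Dcn) are small leucine-rich proteoglycans that bind fibrillar collagen, and Twist1 is a basic helix-loop-helix factor of cranial mesenchyme. In the embryonic head such genes are known from the fibroblasts of the meninges that cover the cortex, with Col4a1 also made by endothelial and mural cells.

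The RNA under the peaks is shown first, from GENCODE vM21 transcripts of GRCm38. The 2 peaks called exon and the Twist1 peak have most of their exonic bases in coding sequence. These stretches are given because they show what part of each protein the exonic bases under the peak encode. The Lum exon peak (chr10:97568831-97569147, plus strand) held 276 coding and 41 intronic bases. Its stretch of codons 212 to 271 of 338 (chr10:97568878-97569057), with 10 leucine codons in capitals, lies in the leucine-rich repeats.
Lum codons: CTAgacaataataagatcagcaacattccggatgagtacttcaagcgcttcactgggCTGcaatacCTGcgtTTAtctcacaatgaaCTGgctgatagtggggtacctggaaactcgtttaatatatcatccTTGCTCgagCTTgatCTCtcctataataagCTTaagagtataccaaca
The Col1a1 exon peak (chr11:94950687-94951091, plus strand) held 191 coding and 214 intronic bases. Its codons 1263 to 1322 of 1453 (chr11:94950714-94950893) encode part of the C-terminal propeptide that is cut off before fibres form, with 3 cysteine codons in capitals.
Col1a1 codons: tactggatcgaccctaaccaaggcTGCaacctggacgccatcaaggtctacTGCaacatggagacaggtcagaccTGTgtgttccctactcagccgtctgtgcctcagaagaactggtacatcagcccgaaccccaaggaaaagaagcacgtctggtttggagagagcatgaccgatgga
The Twist1 peak (chr12:33958472-33958782, plus strand) was called 3' UTR in the table. In the annotation it held 127 coding, 40 UTR and 144 intronic bases, and its codons 166 to 206 of 206 (chr12:33958473-33958598) end with the stop codon in capitals.
Twist1 codons: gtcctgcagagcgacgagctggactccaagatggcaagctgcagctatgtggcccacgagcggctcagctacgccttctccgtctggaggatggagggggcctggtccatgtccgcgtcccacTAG

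The other 8 peaks lay mainly in 3' UTRs. STAU2 is known to bind paired RNA. The most stable predicted hairpin of at most 30 bases was therefore sought in the central 300 bases of each. The hairpins of 5 of these 8 peaks are given, from the strongest to the weakest of the 5, with paired bases in capitals. They lie at chr11:94952739-94952768 (Col1a1, plus strand), chr8:11199430-11199456 (Col4a1, minus strand), chr10:97572225-97572248 (Lum, plus strand), chr10:97517762-97517791 (Dcn, plus strand) and chr1:45349042-45349060 (Col3a1, plus strand).
Col1a1: AGAGTGCGGGGacttcaCCCTGCccACTCT
Col4a1: GGGCGTGaGGcgctctCCaCACaGCCC
Lum: GATGAAAAGcaggccTTTTTCATC
Dcn: GAAAttCAaGCACactGTGCaTGcctTTTC
Col3a1: CTCTaGCccatctGCAGAG
The Col1a1 hairpin had a predicted energy of -14.9 kcal/mol, and 9.5% of 2918 windows of 300 bases in 3' UTR peaks of the table held a hairpin of lower energy. Among the 5 the Col4a1 hairpin followed at -11.8 kcal/mol (32.8% of windows lower), then Lum at -7.1 (87.1%), Dcn at -5.4 (97.3%) and Col3a1 at -4.8 (98.7%). Not printed were the hairpins of the Col1a1 peak nearer the stop codon (-9.5, 60.1%), the Col4a1 peak farther from it (-7.2, 86.2%) and Col1a2 (-6.0, 95.0%).

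The sum of the counts over the gene rows was 4688215 to 6374892 per library. At E11.5 rows called intron took 56.3 to 64% of that sum, against 22.6 to 34.0% at the other stages, so the E11.5 libraries stood apart. The 10 largest rows alone took 55.56, 59.38 and 64.15% of the sum in E11.5 libraries 1 to 3. At the other stages they took 21.71 to 31.97%. Whether these were the rows called intron was not tested. The intron share therefore does not show more intronic RNA over many genes at E11.5. Levels are given as CPM (counts per 1000000), relative to a library size scaled by the trimmed mean of M-values, whose factors were 0.477 to 0.596 at E11.5 and 1.16 to 1.39 elsewhere. With plain library totals as the scale, the log2 change of the median gene from E11.5 to E13.5 was 1.22. Comparisons with E11.5 thus rest on the scaling more than the others do.

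From E13.5 to E15.5, RNA of all 7 genes fell. The fall was largest for Lum and smallest for Col4a1, and the median log2 change was -3.23, against -0.002 over all genes tested. In this comparison 0.495% of 7876 genes were lower (39 genes at an adjusted p under 0.05, edgeR with Benjamini-Hochberg adjustment). From E15.5 to E17.5 the 3 fibrillar collagen genes and both proteoglycan genes fell again, 5 of 7, beside 11.1% of all genes. Between E13.5 and E17.5, 7 of 7 were lower, with a background of 18.6%, and between E11.5 and E17.5 again 7 of 7, with a background of 29.0%. The first step was mixed: from E11.5 to E13.5 Col1a1 and Dcn rose (2 of 7, background 12.7%), Twist1 fell (1 of 7, background 11.9%) and 4 did not pass. Over the 4 stages together all 7 genes differed, as did 53.7% of all genes. All 7 had passed the filter on low counts.

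**Figure D1:**
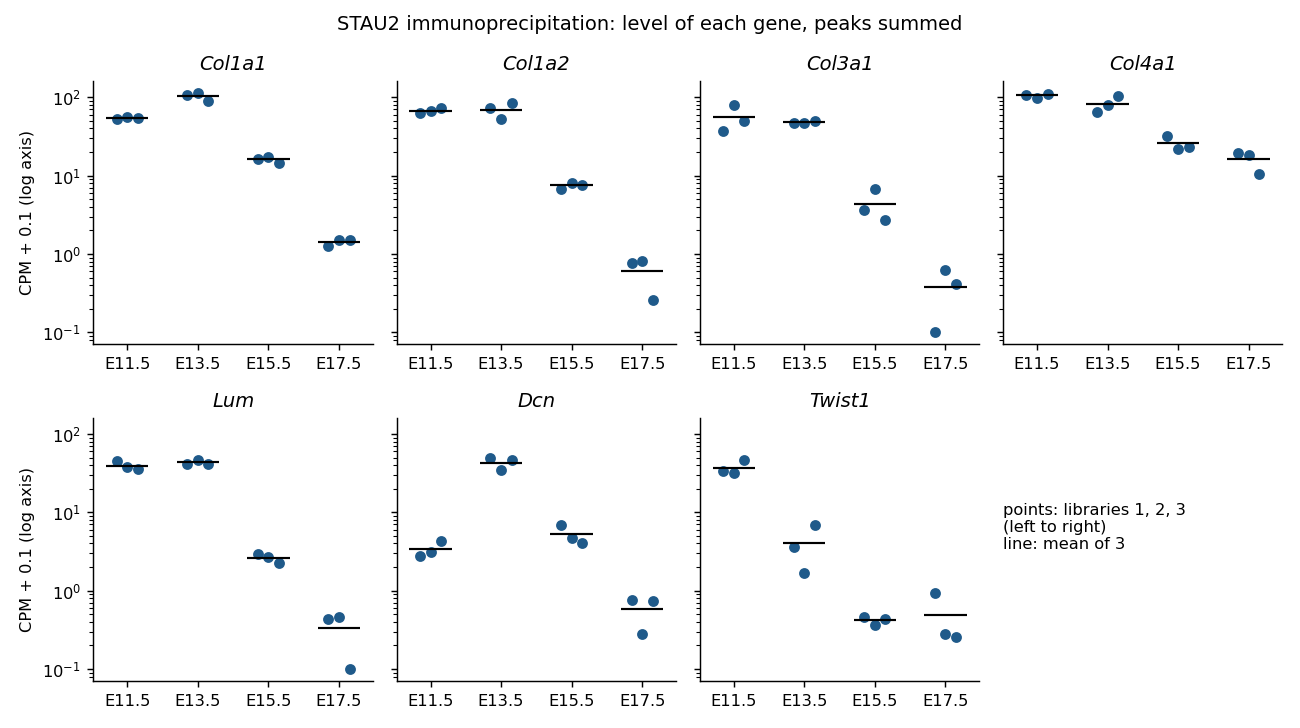
CPM of each gene, its peaks summed, in the 3 libraries of each stage, on a log axis after adding 0.1 CPM, with the mean of the 3 as a line. The mean of each gene is lower at E15.5 than at E13.5, a step in which 7 of 7 passed as lower, beside 0.495% of all genes. Dcn is highest at E13.5, and Twist1 is highest at E11.5.

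Among the fibrillar collagens, Col1a1 (ENSMUSG00000001506) stood at 52.8, 55.4 and 54.4 CPM in the E11.5 libraries 1 to 3. It stood at 105.5, 113 and 90.2 CPM at E13.5, at 16.4, 17.2 and 14.4 CPM at E15.5, and at 1.16, 1.42 and 1.42 CPM at E17.5. No 2 stages overlapped, and the order from the highest was E13.5, E11.5, E15.5, then E17.5. The rise from E11.5 to E13.5 was 0.93 ± 0.22 (log2 change ± SE, adjusted p = 0.0066). The fall to E15.5 was -2.68 ± 0.23 (adjusted p = 1.44e-05), and the next, to E17.5, was -3.57 ± 0.28 (adjusted p = 3.67e-06). The E17.5 level rested on 24 counts over 3 libraries, against 2248 at E13.5. The rise at E13.5 was lost when rows with a peak score below the table's median were left out, which removed the exon peak (0.55, adjusted p = 0.211).

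Col1a2 (ENSMUSG00000029661) and Col3a1 (ENSMUSG00000026043) had no change that passed between the first 2 stages with the main scaling, and then fell. Col1a2 had 62.1, 67.5 and 72.2 CPM at E11.5 and 72.3, 52.3 and 84.5 CPM at E13.5, so these 2 stages overlapped (0.05 ± 0.27, adjusted p = 0.914). It then had 6.70, 7.95 and 7.54 CPM at E15.5, and 0.661, 0.710 and 0.158 CPM at E17.5. Both later stages lay below all libraries of the stage before, by -3.23 ± 0.30 (adjusted p = 2.18e-05) and -3.83 ± 0.41 (adjusted p = 2.53e-05). Col3a1 varied most at E11.5, with 36.7, 80.8 and 49.0 CPM, around the 47.2, 46.3 and 49.4 CPM of E13.5 (-0.22 ± 0.37, adjusted p = 0.708). Its E15.5 libraries had 3.53, 6.60 and 2.59 CPM and its E17.5 libraries 0, 0.533 and 0.316 CPM. The falls were -3.49 ± 0.42 (adjusted p = 0.000365) and -3.82 ± 0.63 (adjusted p = 0.000671). Without E11.5 replicate 2 the first change of Col3a1 was 0.16, and without E13.5 replicate 3 that of Col1a2 was -0.11. The direction of either between E11.5 and E13.5 thus turned on 1 library.

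Col4a1 (ENSMUSG00000031502), the basement membrane chain, had the smallest fall of the 7 from E13.5 to E15.5. It had 107.5, 98.2 and 111 CPM at E11.5, 64.8, 80.8 and 103 CPM at E13.5, 32.3, 21.95 and 23.4 CPM at E15.5, and 19.5, 18.5 and 10.4 CPM at E17.5. The first 2 stages overlapped (-0.35 ± 0.28, adjusted p = 0.387), and the E15.5 libraries lay below all E13.5 libraries. The fall to E15.5 was -1.68 ± 0.28 (adjusted p = 0.0105), and the step to E17.5 did not pass (-0.68 ± 0.29, adjusted p = 0.103), although no E17.5 library reached an E15.5 one. Scaled to the total over every peak, that step passed (-1.10, adjusted p = 0.0171). The fall to E15.5 missed the threshold without E15.5 replicate 2 (adjusted p = 0.0638) or replicate 3 (adjusted p = 0.0546). Over the whole span from E11.5 to E17.5 Col4a1 fell by 2.71 on the log2 scale, against falls of 5.32 to 7.54 for the 3 fibrillar collagens and of 2.68 for Dcn. With plain totals these were -1.51 for Col4a1, -4.12 to -6.31 for the fibrillar collagens and -1.47 for Dcn. The difference between these falls was not tested. The second Col4a1 peak shares its window with an intron row of Gm15418 on the opposite strand, which had 216 counts in E13.5 replicate 2 and 4 to 64 in the other libraries. The kit keeps strand, but whether the counting used strand is not stated in the sources used here.

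The proteoglycans differed from each other in the first step. Lum (ENSMUSG00000036446) had 44.5, 37.5 and 35.9 CPM at E11.5 and 41.6, 47.1 and 41.5 CPM at E13.5, which overlapped (0.14 ± 0.28, adjusted p = 0.757). It had 2.80, 2.56 and 2.14 CPM at E15.5 and 0.331, 0.355 and 0 CPM at E17.5. The fall of Lum from E13.5 to E15.5 was -4.11 ± 0.33 (adjusted p = 8.32e-06), and to E17.5 it fell by a further 3.37 (SE 0.51, adjusted p = 0.000417), when 4 counts remained over 3 libraries.

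Dcn (ENSMUSG00000019929) instead stood at 2.69, 3.03 and 4.25 CPM at E11.5 and rose to 48.6, 34.5 and 46.4 CPM at E13.5. It then had 6.82, 4.58 and 3.94 CPM at E15.5 and 0.661, 0.178 and 0.632 CPM at E17.5. Its E13.5 libraries lay above all others, while E11.5 and E15.5 overlapped. The rise was 3.70 ± 0.38 (adjusted p = 6.35e-06) and the falls were -3.07 ± 0.34 (adjusted p = 0.000179) and -3.31 ± 0.45 (adjusted p = 0.000181). The E11.5 level rested on 28 counts over 3 libraries and the E13.5 level on 949.

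Twist1 (ENSMUSG00000035799), the transcription factor, went the opposite way to Dcn in the first step. It had 33.7, 31.5 and 45.9 CPM at E11.5, then 3.47, 1.57 and 6.88 CPM at E13.5, 0.365, 0.269 and 0.338 CPM at E15.5, and 0.826, 0.178 and 0.158 CPM at E17.5. Its E11.5 libraries lay above all others, and E15.5 and E17.5 overlapped. The first fall was -3.21 ± 0.46 (adjusted p = 0.000155) and the second -3.54 ± 0.61 (adjusted p = 0.0108), with no call in the last step (0.24 ± 0.84, adjusted p = 0.871). The second fall rests on 8 counts at E15.5. It missed the threshold without E15.5 replicate 1 (adjusted p = 0.0754), replicate 2 (adjusted p = 0.0667) or replicate 3 (adjusted p = 0.0546). The last step turned to -0.88 without E17.5 replicate 1, which held 5 of the 7 counts of that stage.

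Scaled to plain totals of the gene rows instead, the step from E11.5 to E13.5 passed for 7 of 7 genes, with 6 higher and Twist1 lower, but so did 5310 of 7876 genes. Col3a1 (1.00) and Col4a1 (0.84) then changed sign, and Col1a2 (1.25, adjusted p = 0.00137) and Lum (1.31, adjusted p = 0.00176) rose. Whether these genes changed in this step thus depends on the scaling. The rise of Dcn and the fall of Twist1 did not: they were 4.89 and -2.00 with that scaling. The split over all genes moved as well: 29 were higher and 29 lower from E13.5 to E15.5 (14 and 39 before), 495 and 1110 from E15.5 to E17.5 (738 and 872), and 4666 and 808 from E11.5 to E17.5 (2267 and 2282).

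Levels can be compared between genes only per length, here as mean CPM per kb of peak window (± SD, n = 3). At E11.5 Col4a1 (138 ± 8.74), Col3a1 (128 ± 52.3), Twist1 (119 ± 25) and Col1a2 (101 ± 7.54) came first. Neighbours in that order differed by less than the larger of their SDs. Lum (52.3 ± 6.06), Col1a1 (40.5 ± 0.953) and Dcn (6.88 ± 1.69) followed. At E13.5 the order was Col3a1 (109.5 ± 3.67), Col4a1 (109 ± 25.1), Col1a2 (104 ± 24.2), Dcn (89.4 ± 15.7), Col1a1 (76.9 ± 8.82), Lum (57.7 ± 4.21) and Twist1 (12.8 ± 8.64). There, Col3a1 to Col1a1 overlapped with their neighbours, and Lum and Twist1 stood below. By E17.5 Col4a1 kept 21.1 ± 6.51 CPM per kb, and the others lay between 0.304 and 1.25. The windows of the exon peaks and of Twist1 include intronic bases. If few reads fell there, their value per kb is too low, but reads were not split between exonic and intronic bases.

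Col1a1, Col4a1 and Lum each had more than 1 peak, so the peaks of a gene could be set against each other. All 11 member peaks differed over the 4 stages, as did 46.6% of 14106 peak rows tested. In Col1a1 the exon peak (chr11:94950687-94951091) had 61, 24 and 53 counts at E11.5 and 387, 326 and 313 at E13.5. The 3' UTR peak nearer the stop codon (chr11:94951598-94952214) went from 95, 86 and 70 to 304, 384 and 289 counts, and the farther one (chr11:94952695-94953011) from 21, 36 and 18 to 69, 83 and 93. The exon peak rose by 1.58 ± 0.37 (adjusted p = 0.00477) from E11.5 to E13.5. The 3' UTR peaks had 0.63 ± 0.34 (adjusted p = 0.211) and 0.34 ± 0.45 (adjusted p = 0.648), but with plain totals both passed (1.79, adjusted p = 0.000236, and 1.53, adjusted p = 0.00675). With plain totals the median gene changed by 1.22, so these values cannot be set beside the 1.58 of the exon peak.

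The share of Col1a1 counts in the exon peak was 29.5% ± 11.4 (SD, n = 3) at E11.5 and 45.7% ± 4.94 at E13.5. Tested against the other peaks of the gene, the exon peak's change differed by 0.63 on the log2 scale, which did not pass (edgeR diffSpliceDGE, adjusted p = 1.00, unadjusted p = 0.12). None of the 7 member peaks in genes with several peaks passed in that comparison, where 0.321% of 9648 peak rows did. An unadjusted p under 0.05 was found for 227 rows, a smaller share than 0.05, so the test was conservative. It could thus miss a real difference between peaks. The test of this step was added after the values were seen.

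From E13.5 to E15.5 the 3 Col1a1 peaks fell by nearly the same amount, -2.65, -2.70 and -2.68. The 2 Lum peaks also fell together, by -4.11 in the 3' UTR (chr10:97572136-97572570) and -4.08 in the exon. The Col4a1 peaks had -1.87 ± 0.35 (chr8:11198805-11199115, adjusted p = 0.0118) and -1.53 ± 0.38 (chr8:11199276-11199727, adjusted p = 0.0994), and the latter passed with DESeq2 (adjusted p = 0.00716) and with the replicate number as a block (adjusted p = 0.0478). The first of these missed the threshold without E13.5 replicate 3 (adjusted p = 0.0995), E15.5 replicate 1 (0.0806) or E15.5 replicate 2 (0.0963), and the farther Col1a1 peak without E15.5 replicate 3 (0.0566). In this comparison 0% of 9648 peak rows differed from the other peaks of their gene by diffSpliceDGE (57 at an unadjusted p under 0.05), and 0 of 7 member rows did (0 at that unadjusted p). Since 57 is a smaller share of the rows than 0.05, the test was conservative. Its lack of calls therefore does not show that the peaks of a gene moved alike. The Lum 3' UTR peak had 0 counts in all 3 E17.5 libraries. Taking a floor of 3 counts for the 3 libraries together, it was at least 119.7-fold lower there than at E13.5 and at least 137-fold lower than at E11.5. The Lum exon peak kept 2, 2 and 0 counts.

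**Figure D2:**
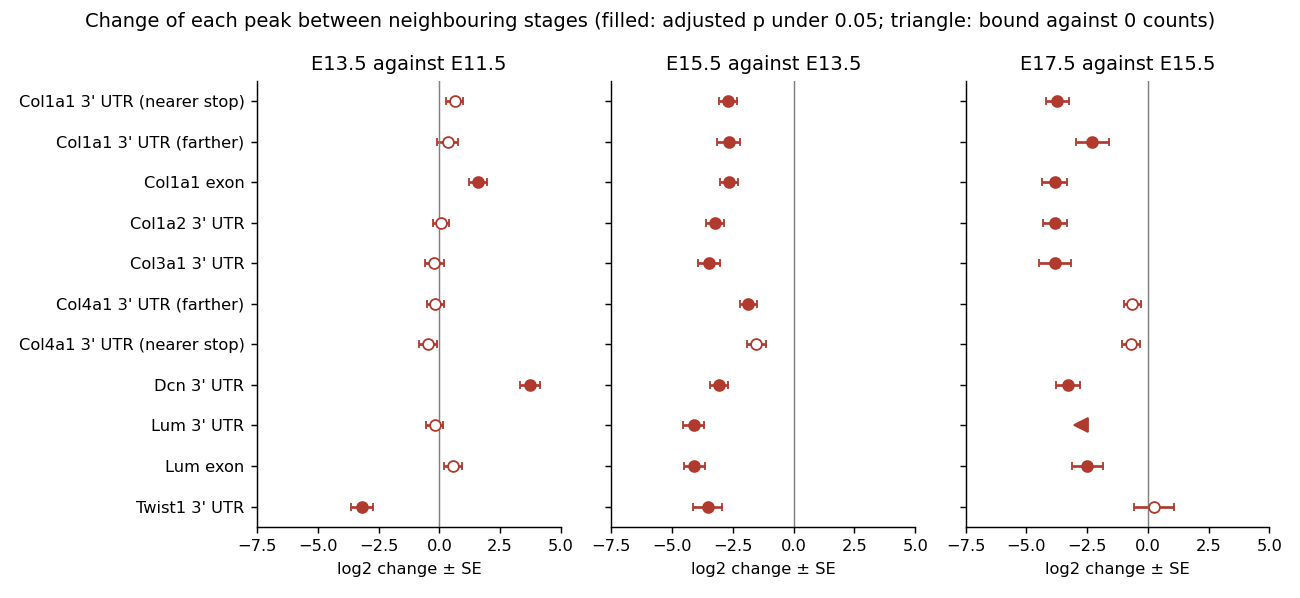
Log2 change (± SE) of each of the 11 peaks in 3 steps between neighbouring stages, with filled points where the adjusted p was under 0.05 and a triangle for the bound of the Lum 3' UTR peak, which had 0 counts at E17.5. In the middle step all 11 peaks lie left of 0, and the peaks of Col1a1 (-2.65 to -2.70) and of Lum (-4.08 and -4.11) nearly coincide.

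Further matrix genes were taken from 9 lists of related genes, of which 44 genes were tested. From E13.5 to E15.5 4 of the 44 fell (Col4a2, Col6a2, Bgn and Loxl2) and 0 rose, with a median of -0.61, beside the 0.495% of all genes that were lower. From E15.5 to E17.5 20 fell and 3 rose, with a median of -1.17, beside 11.1% lower and 9.37% higher among all genes. Of 3 further fibrillar collagens tested, 0 fell from E13.5 to E15.5 and 2 fell from E15.5 to E17.5. Col5a2, a chain of type V collagen that joins type I fibres, had means of 14.7, 13.8, 4.27 and 1.13 CPM over the 4 stages. Its fall in the last step passed (-1.90, adjusted p = 0.0134) and the earlier one did not (-1.69, adjusted p = 0.102). Col2a1, the cartilage collagen, had means of 47.5, 70.0, 54.2 and 7.06 CPM, with a fall in the last step alone among the 3 neighbouring steps (-2.93, adjusted p = 3.91e-05). Of 3 network and basement membrane collagens, 1 fell from E13.5 to E15.5. That was Col4a2, the partner chain of Col4a1 in type IV collagen (-1.53, adjusted p = 0.0163), with means of 54.6, 30.9, 10.6 and 7.99 CPM. Of 3 other collagens, Col6a2 fell in both later steps (-2.56, adjusted p = 0.0105, and -2.89, adjusted p = 0.00339). The middle-step call of Col4a2 was lost without any 1 of 5 libraries (adjusted p up to 0.117) and with plain totals (0.0644), that of Col6a2 without any 1 of 3 libraries (up to 0.0792), and the last-step call of Col5a2 without either of 2 (up to 0.0565).

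Of 3 further small leucine-rich proteoglycans 1 fell from E13.5 to E15.5, namely biglycan (Bgn, -2.05, adjusted p = 0.0105), which fell again to E17.5 (-2.87, adjusted p = 0.000229). The first of these was lost without E15.5 replicate 1 or 3 (adjusted p up to 0.0792). Prelp rose from E11.5 to E13.5 as Dcn did (3.27, adjusted p = 0.000604), from 1.52 to 14.8 CPM, and fell in the last step (-4.14, adjusted p = 0.000215). Of 11 genes for collagen processing and crosslinking, Loxl2, a lysyl oxidase, was the 1 lower at E15.5 (-2.03, adjusted p = 0.0484), a call lost without any 1 of 10 libraries (up to 0.224) and with plain totals (0.0905). In the last step 4 of the 11 fell and 1 rose, and 2 to 5 passed with 1 library left out (2 without E15.5 replicate 3, E17.5 replicate 2 or E17.5 replicate 3). P4hb, a subunit of the prolyl hydroxylase, fell (-1.79, adjusted p = 0.00092), as did P3h2 (-1.78, adjusted p = 0.00251) and Plod2 (-1.26, adjusted p = 0.0303; lost without any 1 of 4 libraries, up to 0.168). P4ha3, a catalytic subunit of that enzyme, was the 1 that rose, from 7.04 to 15.2 CPM (1.10, adjusted p = 0.0263), a call lost with plain totals (0.0694) and without any 1 of 4 libraries (up to 0.0952). Of 11 other matrix glycoproteins 0 fell from E13.5 to E15.5, and from E15.5 to E17.5 6 fell and 2 rose. The risers were Fbn2, a fibrillin, from 10.8 to 32.7 CPM (1.60, adjusted p = 0.00273), and Fbln2, a fibulin, from 1.56 to 6.68 CPM (2.08, adjusted p = 0.00285). P4ha3, Fbn2 and Fbln2 were named after their values were seen. Elastin (Eln) rose from 1.69 to 33.4 CPM between E11.5 and E13.5 (4.25, adjusted p = 2.70e-06) and had 43.0 CPM at E15.5. It fell in the last step (-1.11, adjusted p = 0.0137), a call lost without any 1 of 3 libraries (up to 0.0596). Mfap2 (-1.93, adjusted p = 0.000148), Mfap4 (-2.54, adjusted p = 0.000122) and Ltbp1 (-2.42, adjusted p = 0.000181) were also among the 6 that fell there.

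Among collagen receptors and matrix proteases no gene passed in the middle step. Of 4 receptors tested, 0 fell from E13.5 to E15.5. Adgrg1, the receptor for type III collagen on cortical progenitors, had means of 132, 314, 261 and 57.1 CPM, with a rise in the first step (1.25, adjusted p = 0.00289) and a fall in the last (-2.19, adjusted p = 9.80e-05). Of 3 proteases and inhibitors 0 fell in either later step. Of 3 laminin and other basement membrane genes 0 fell in the middle step, with changes from -0.12 (Agrn) to -2.34 (Nid1, adjusted p = 0.0514). A count of 0 means only that no gene passed, where 0.495% of all genes were lower, and not that levels held. The medians in that step were -0.92 (receptors), -0.32 (proteases and inhibitors) and -0.80 (basement membrane genes).

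Mesenchymal transcription factors followed Twist1 in the first step. All 8 that were tested, of 23 listed, fell from E11.5 to E13.5, with a median of -2.86, beside 11.9% of all genes. With 1 library left out 6 to 8 passed, and the calls of the genes named here held. Six2 went from 179.5 to 4.58 CPM (-5.29, adjusted p = 5.20e-07) and Prrx2 from 18.1 to 1.00 CPM (-4.14, adjusted p = 1.59e-05). Prrx1 fell by 1.83 (adjusted p = 0.000549), a call lost with plain totals (-0.63, adjusted p = 0.0841). With that scaling 5 of the 8 fell, with a median of -1.66, beside 138 of 7876 genes. From E13.5 to E15.5 1 of 8 fell, Six2, with a median of -1.83 over the list. Among 4 partners of Twist1 and Id genes, Tcf4, which encodes an E protein that pairs with Twist1, rose in the first step (1.69, adjusted p = 0.000231). Tcf12, another E protein gene, had -1.07 (adjusted p = 0.00868) there but 0.12 with plain totals.

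The meningeal name of the gene group was set against further fibroblast genes of the meninges. This list was chosen with earlier results of these data known, so it is no independent test of the name. Of 17 listed, 6 had a row that was tested, and 11 had none used here, Aldh1a2 and Ptgds among them. From E13.5 to E15.5 5 of these 6 fell, beside the background of 0.495%, with a median of -3.26. With 1 library left out 0 to 5 of them passed, and 0 without E15.5 replicate 1. With plain totals 4 passed. Their summed level in the 3 libraries spanned 119 to 164 CPM (E11.5), 116 to 136 CPM (E13.5), 40.2 to 46.7 CPM (E15.5) and 25.5 to 30.6 CPM (E17.5). Slc22a6, an organic anion transporter, rose from 0.257 to 6.11 CPM between E11.5 and E13.5 (4.58, adjusted p = 0.00303) and fell to 0.632 CPM at E15.5 (-3.21, adjusted p = 0.0484, lost without any 1 of 10 libraries and with plain totals, 0.053). Bmp7, a secreted growth factor, fell in both later steps (-1.83, adjusted p = 0.0105, and -1.25, adjusted p = 0.0164); the earlier call was lost without E15.5 replicate 1 or 3 (up to 0.0753) and the later one without E17.5 replicate 1 (0.0731). The same sum over the 7 members spanned 340.0 to 374 CPM (E11.5), 376 to 422 CPM (E13.5), 54.4 to 68.9 CPM (E15.5) and 13.1 to 23.1 CPM (E17.5). Where in the cortex or its coverings the RNA was made was not measured.

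Markers of other cell types moved with parts of this pattern, and their part in the results was not tested. Of 14 endothelial markers 3 were tested and 0 passed as lower from E13.5 to E15.5, with a median of -1.11. Their sums were 19.98 to 49.9 CPM (E13.5), 17.1 to 18.9 CPM (E15.5) and 5.50 to 9.64 CPM (E17.5). In the last step 2 of the 3 fell, beside 11.1% of all genes: Cdh5 (-3.20, adjusted p = 0.000486) and Tek (-2.38, adjusted p = 0.00661). Kdr did not pass there (-0.54, adjusted p = 0.401), and neither did Col4a1 with the main scaling (-0.68, adjusted p = 0.103). Of 10 mural markers 2 were tested and 0 fell in the middle step, with sums of 37.9 to 47.7 CPM and then 21.2 to 44.4. Of 12 microglia and macrophage markers 4 were tested, with sums of 22.02 to 28.3 and then 14.3 to 19.0 CPM, and Pf4 was the 1 that fell (-3.34, adjusted p = 0.0439), a call lost without any 1 of 7 libraries (adjusted p up to 0.185). Cartilage and bone markers had 0 of 3 lower in the middle step and 3 of 3 in the last (backgrounds 0.495% and 11.1%), and no epidermal marker of 7 had a row used here.

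Choroid plexus and erythroid markers moved in the first step. Ttr, the choroid plexus transthyretin, had means of 6.28, 526, 95.2 and 2.14 CPM, with its maximum at E13.5 like Dcn. It rose by 6.37 (adjusted p = 6.91e-08) and fell by 2.47 (adjusted p = 0.000652) in the next step. The other choroid plexus marker tested, Otx2, fell in the first step (-2.39, adjusted p = 0.00432; 0.0547 with plain totals), and 6 of 8 listed had no row used here. The 2 erythroid markers tested summed to 29.3 to 33.4 CPM at E11.5 and to 0.858 to 1.04 CPM at E13.5, a fall in the same step as Twist1. Markers of the labelled tissue were present at every stage: 10 of 14 cortical progenitor and neuron genes were tested and summed to 862 to 1277 CPM at E11.5 and 1583 to 2449 CPM from E13.5 on. Of these 10, 0 passed as lower from E13.5 to E15.5, where only 0.495% of all genes did, so this count does not show that levels held. From E15.5 to E17.5 3 fell and 1 rose, beside 11.1% lower and 9.37% higher among all genes. From E13.5 to E17.5 6 were lower and 1 higher, with a median of -1.12, beside 1465 lower and 1376 higher of 7876 genes.

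**Figure D3:**
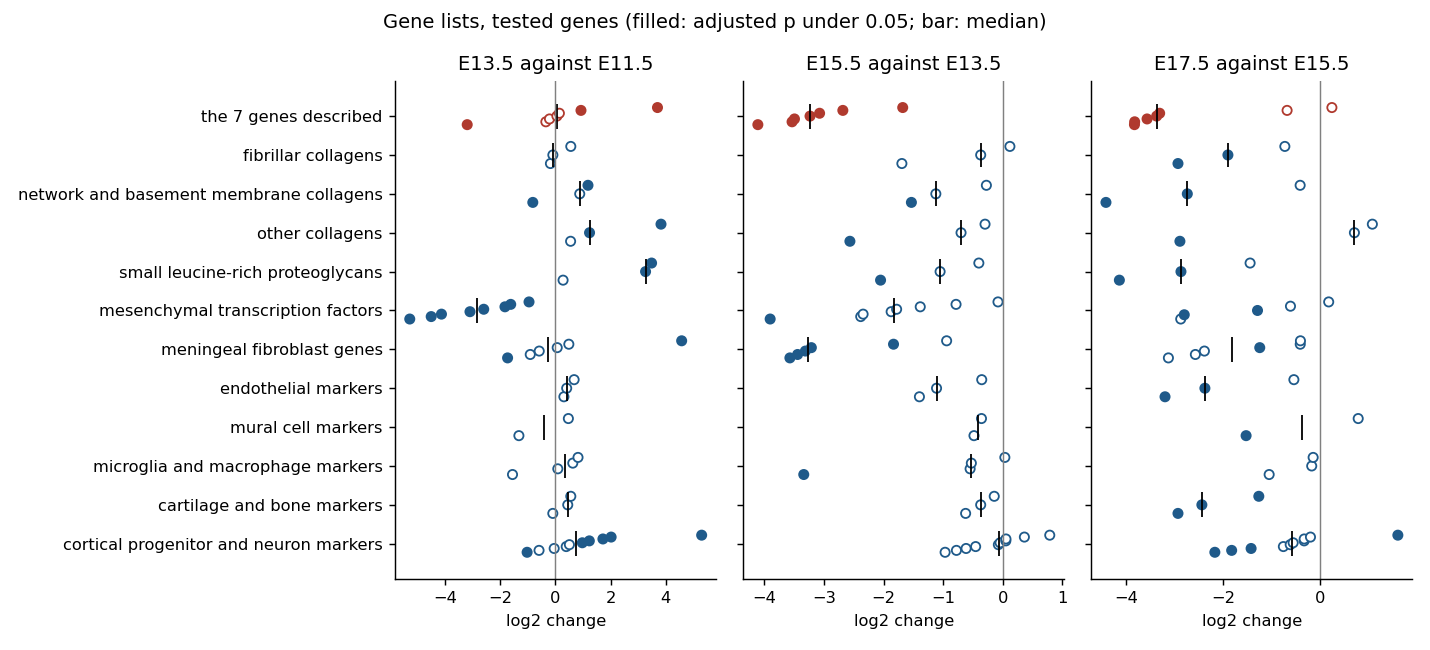
Log2 change of every tested gene of 11 lists and of the 7 genes described, in 3 steps between neighbouring stages; filled points had an adjusted p under 0.05 and bars are list medians. Genes at 0 in all 3 E17.5 libraries are left out of the last panel. In the middle panel the 7 genes and the meningeal fibroblast genes have medians below -3, and the cortical genes one of -0.06.

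The genes whose level over the 12 libraries was most like the mean profile of the 7 were sought among 4221 other genes that differed over the stages. Pearson's r across the 12 libraries is a description, since all values share libraries and scaling. Tpx2, a mitotic spindle factor, came first (r = 0.967), then Bgn (0.964), Bmp7 (0.963), Haus4 (0.963), Col5a2 (0.961) and Anp32e (0.958), with Lgals1, Kdelr2, Nid1 and Cdk12 down to 0.949. The size of the change differed: Tpx2 went from 188 CPM at E11.5 to 42.8 at E17.5, and Bgn from 57.9 to 2.31. Among the members themselves Lum (0.996) and Col1a2 (0.994) were closest to the mean they belong to, and Twist1 (0.793) and Dcn (0.767) were farthest.

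Folding was compared over 300 bases at the centre of each 3' UTR peak that lay within 1 exon. The median of the 2918 windows was -73.1 kcal/mol at 44.7% G and C. The windows of Col3a1 (-38.9 kcal/mol), Dcn (-44.2), the nearer Col1a1 peak (-47.1), Lum (-49.7) and Col1a2 (-52.8) were weaker than the median, with 89.1 to 98.3% of windows at a lower energy. These 5 windows were also poor in G and C (30.3 to 40.0%). The farther Col1a1 peak (-74.5) and the Col4a1 peaks (-71.6 and -92.8) lay near or below the median, at 46.7 to 53.3% G and C. A predicted fold is a description of the sequence and shows no binding.

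**Figure D4:**
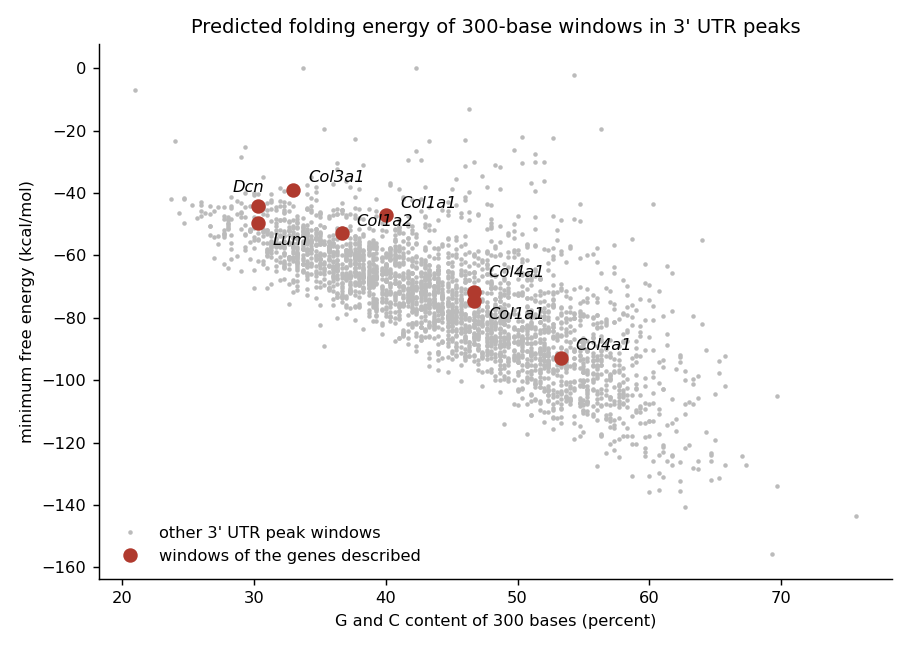
Predicted minimum free energy (kcal/mol) of 300 bases against their G and C content (percent) for 2918 windows of 3' UTR peaks (grey) and the 8 windows of Col1a1, Col1a2, Col3a1, Col4a1, Dcn and Lum (red). The energy falls as G and C rise, and 5 of the 8 lie at 40.0% or less and above -53 kcal/mol.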

How the data were processed

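The authors deposited 1 table of peaks of STAU2-bound RNA with whole-number counts per peak and library, and a peak score per row. HOMER 4.10 and the build mm10/GRCm38 are named per the submitters' processing notes, with the aligner and counter not given in the sources used here. A score the authors deposited was used only as an alternative filter. Of 18975 rows, 4513 called intergenic and 165 without a gene were left out (52.9 to 64.8% of a library's counts). The rest were tested per row and summed per gene in edgeR 4.0.16 (TMM, filterByExpr, quasi-likelihood F test, all 12 libraries, stage as the only term, Benjamini-Hochberg over all features at 0.05). SE is the size of the log2 change divided by the root of F. CPM uses TMM library sizes. Peaks of a gene were compared with diffSpliceDGE. Named beyond the 7 members were up to 4 genes per list with the smallest p over the stages and the 10 most alike genes. The members and lists were chosen with earlier results of these data known. Folds used ViennaRNA 2.7.2. Alternatives included DESeq2 1.42.0. The tests were tried on simulated data.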

Additional observations from a re-analysis of the deposited data

How the results depend on the processing

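The number of member genes called was 3, 7, 5, 7 and 7 in the 5 comparisons (E13.5 against E11.5, E15.5 against E13.5, E17.5 against E15.5, E17.5 against E13.5 and E17.5 against E11.5). It was the same with RLE scaling, no filter on low counts and DESeq2. Libraries of different stages were correlated after the mean of the stage was taken from each gene. These deviations correlated at -0.18 to 0.56 in 18 same-numbered pairs, 13 of them over 0.1, and at -0.474 to 0.495 in differently numbered pairs. All 3 same-numbered pairs exceeded 0.1 in 3 of the 6 combinations of stages (E11.5 with E13.5, E11.5 with E17.5, E13.5 with E15.5) and not in the other 3. The labels name nothing that a number shares. With the replicate block the counts were again 3, 7, 5, 7 and 7, and 1 peak call was gained (the second Col4a1 peak, E15.5 against E13.5, -1.57, adjusted p = 0.0478). Leaving out 1 library at a time gave 3 to 3, 5 to 7, 5 to 5, 7 to 7 and 7 to 7 genes.

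Scaling by the plain total of the gene rows, or of every peak, gave 7 genes in the first comparison. By these 2 scalings Col3a1 was 1.00 and 1.05, Col4a1 0.84 and 0.90, the Col3a1 peak 1.00 and 1.05, the Col4a1 peaks 1.02 and 1.08 (first) and 0.71 and 0.76 (second), and the Lum 3' UTR peak 0.95 and 1.00. The scaling by every peak also turned Twist1 from E15.5 to E17.5 (-0.14, gene and peak). With 1 library left out, the change from E11.5 to E13.5 spanned -0.44 to 0.16 for Col3a1 (peak -0.43 to 0.18) and -0.11 to 0.24 for Col1a2 (peak -0.080 to 0.22), and that of Twist1 from E15.5 to E17.5 -0.88 to 0.62 (peak -0.88 to 0.64). The cause was not tested. All genes called from E13.5 to E15.5 numbered 53, 134 with DESeq2 and 11 to 54 with 1 library left out. Only the rows with a score at or above the median left 6 members to test. Without the 3 E11.5 libraries, added after seeing the data, the later comparisons gave 7, 5 and 7.

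Some genes taken from the lists rest on few counts and others, such as P4hb, on many. For the genes named, the calls that a left-out library or plain totals end are given beside them. Depth limits E17.5, where Twist1, Lum and Col3a1 have 4 to 7 counts over 3 libraries.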
